A study of Mus musculus with 12 samples.

Results

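The 8 transcription factors Snai1, Snai2, Twist1, Twist2, Zeb1, Zeb2, Prrx1 and Prrx2 were followed in bulk RNA-seq of mouse lung mesenchymal cells after knockdown of Klf4. They were found by gene symbol, each as 1 row among the 52636 genes listed for each cell type. Airway smooth muscle cells (SMCs) were purchased primary C57BL/6 cells, named tracheal in other fields of the sample labels, and their age was not given. PDGFR-β+ cells came from lungs of C57BL/6 mice 12 weeks of age. In both cell types the labels give the genotype as WT for Scr libraries and Klf4 KD for siKlf4 libraries, and they name no transgene. Per the study, the PDGFR-β+ cells of its bulk RNA-seq were sorted for Zs from tamoxifen-treated Pdgfrb-CreERT2, ROSA26R(Zs/+) animals. This genotype is at odds with the WT label, and the number of mice behind these libraries is not given. Each cell type was exposed for 6 h to siRNA against Klf4 at 50 nM (siKlf4) or to scrambled RNA (Scr) and cultured for a further 72 h, giving 4 groups of 3 libraries. The comparisons asked how the loss of Klf4 changed the 8 transcripts in each cell type and whether the change differed between the cell types.

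These factors bind DNA in mesenchymal cells and are best known from the epithelial-to-mesenchymal transition, in which epithelial cells lose their junctions and become motile. SNAI and ZEB proteins are zinc finger repressors that recognise E-box sequences such as CACCTG and silence junction genes including Cdh1, the E-cadherin gene. TWIST proteins are basic helix-loop-helix (bHLH) factors that work in pairs with E proteins, and PRRX proteins are homeobox factors of limb, craniofacial and lung mesenchyme that also mark fibroblasts. KLF4 is a zinc finger factor that binds GC-rich and CACCC-type sequences and can both activate and repress transcription.

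Values were deposited as TPM, a transcript level corrected for length that sums to 1000000 in each library, so the sequencing depth behind a value is unknown. Between 20590 and 21780 genes were above 0 in each library. Klf4 fell from 93.6 ± 3.57 to 20.5 ± 5.31 TPM (mean ± SD, n = 3) in SMCs, where 21.9% was left, and from 141 ± 6.16 to 13 ± 0.782 TPM in PDGFR-β+ cells, where 9.16% was left. The SMC columns held 2 libraries without a replicate number, 1 for each treatment, and 4 numbered ones. Whatever the treatment, Snai2, Zeb2 and Prrx1 were higher and Snai1 was lower in the 2 unnumbered libraries than in all numbered ones. The ranges of Twist1, Twist2, Zeb1 and Prrx2 overlapped. How many of all genes set the unnumbered libraries apart was not counted. Smooth muscle genes were present in both cell types. Acta2, smooth muscle actin, stood at 1373 ± 297 TPM in SMC Scr and 4369 ± 347 TPM in PDGFR-β+ Scr libraries, while Myocd, the cofactor that drives smooth muscle genes, was under 1 TPM in all 12. Pdgfrb stood at 214 ± 1.52 and 447 ± 25.5 TPM. Other listed markers of PDGFR-β mesenchyme went both ways. Pdgfra (417 ± 81.9 and 169 ± 15.7 TPM), Col3a1, Notch3 and Tcf21 had the higher mean in SMC Scr libraries. Col1a1, Cspg4 and Rgs5 had the higher mean in PDGFR-β+ Scr libraries. In a bulk culture, fewer cells of a type and less RNA per cell cannot be told apart.

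The stretches of 250 bases before the RefSeq start sites are shown for 3 of the factors, Twist1 and Zeb2, which rose together in PDGFR-β+ cells, and Snai1, which passed the test in neither cell type. They were read on the strand of the gene, in build GRCm38.p6. The window of Twist1 lies at chr12:33957421-33957670 on the + strand, that of the outermost Zeb2 start at chr2:45117443-45117692 on the − strand, and that of Snai1 at chr2:167537945-167538194 on the + strand. All 3 lie upstream of the gene in the GENCODE M21 annotation. Capitals mark CACCC, the KLF-type motif, in the Zeb2 window and CACCTG, the SNAI and ZEB E-box, in the Snai1 window, and the Twist1 window holds neither motif on either strand.
Twist1: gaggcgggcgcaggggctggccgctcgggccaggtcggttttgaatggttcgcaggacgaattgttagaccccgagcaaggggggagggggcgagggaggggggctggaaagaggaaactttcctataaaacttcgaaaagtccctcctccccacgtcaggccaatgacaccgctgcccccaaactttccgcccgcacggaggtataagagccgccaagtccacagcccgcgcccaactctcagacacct
Zeb2: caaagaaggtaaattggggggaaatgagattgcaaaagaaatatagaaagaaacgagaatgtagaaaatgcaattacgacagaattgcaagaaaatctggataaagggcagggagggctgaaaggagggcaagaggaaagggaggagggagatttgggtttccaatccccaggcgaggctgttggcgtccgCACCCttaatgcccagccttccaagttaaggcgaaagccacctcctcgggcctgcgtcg
Snai1: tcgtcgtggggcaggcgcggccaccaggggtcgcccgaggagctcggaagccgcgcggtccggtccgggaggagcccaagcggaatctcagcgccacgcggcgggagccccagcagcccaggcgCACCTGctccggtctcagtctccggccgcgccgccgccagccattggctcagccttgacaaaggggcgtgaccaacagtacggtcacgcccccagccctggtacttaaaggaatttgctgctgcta
Searched on both strands, CACCC was found in 52% and CACCTG in 17.2% of 32851 promoter windows of the same length, and the 2 motifs share their first 4 bases. Prrx2 held 2 matches to CACCC and none to CACCTG, in a window that falls within the GENCODE span of the gene and is not shown. Prrx1 and Twist2 held neither. Of the 3 other Zeb2 start sites in the table, 1 window held 1 match to CACCC on the opposite strand and 2 held neither motif. A match of letters is a description and not a bound site. Snai2 and Zeb1 had no entry in the sequence table.

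All 8 factors were expressed in both cell types, and Prrx1 was the most abundant of them in all 4 groups. In SMC Scr libraries Prrx1 stood at 265 ± 32.4 TPM, at rank 555 among all genes, and it was followed by Snai1 at 106 ± 16.5, Prrx2 at 90 ± 5.68 and Zeb1 at 70.7 ± 6.11 TPM. Zeb2 (49.3 ± 17.6), Snai2 (45.5 ± 7.93), Twist1 (40.7 ± 1.31) and Twist2 (36.8 ± 4.16 TPM) made up the lower end, and no neighbours among these 4 were separated by their ranges. Of the other neighbours, Prrx1 and Snai1 did not overlap, Snai1 and Prrx2 overlapped, Prrx2 and Zeb1 did not, and Zeb1 and Zeb2 overlapped.

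In PDGFR-β+ Scr libraries Prrx1 again led, at 216 ± 93.6 TPM and rank 730, and Twist1 was last at 28.9 ± 0.613 TPM. Between them lay Prrx2 (88.7 ± 21.2), Snai2 (75 ± 1.4), Zeb2 (72.2 ± 10.7), Zeb1 (67.8 ± 21.9) and Snai1 (61 ± 15 TPM), of which each overlapped the next, and then Twist2 at 44.5 ± 1.71 TPM, which overlapped neither neighbour. Set side by side, the mean of Snai1 was 1.74 times and that of Twist1 1.41 times as high in SMC Scr as in PDGFR-β+ Scr libraries, and Snai2 and Twist2 were 1.65 and 1.21 times as high in PDGFR-β+ cells, with ranges that did not overlap. The ranges of Zeb1, Zeb2, Prrx1 and Prrx2 overlapped. How many of all genes were apart in these 2 groups was not counted. The 2 cell types were deposited in separate tables, and these baseline levels were not tested against each other.

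**Figure D1:**
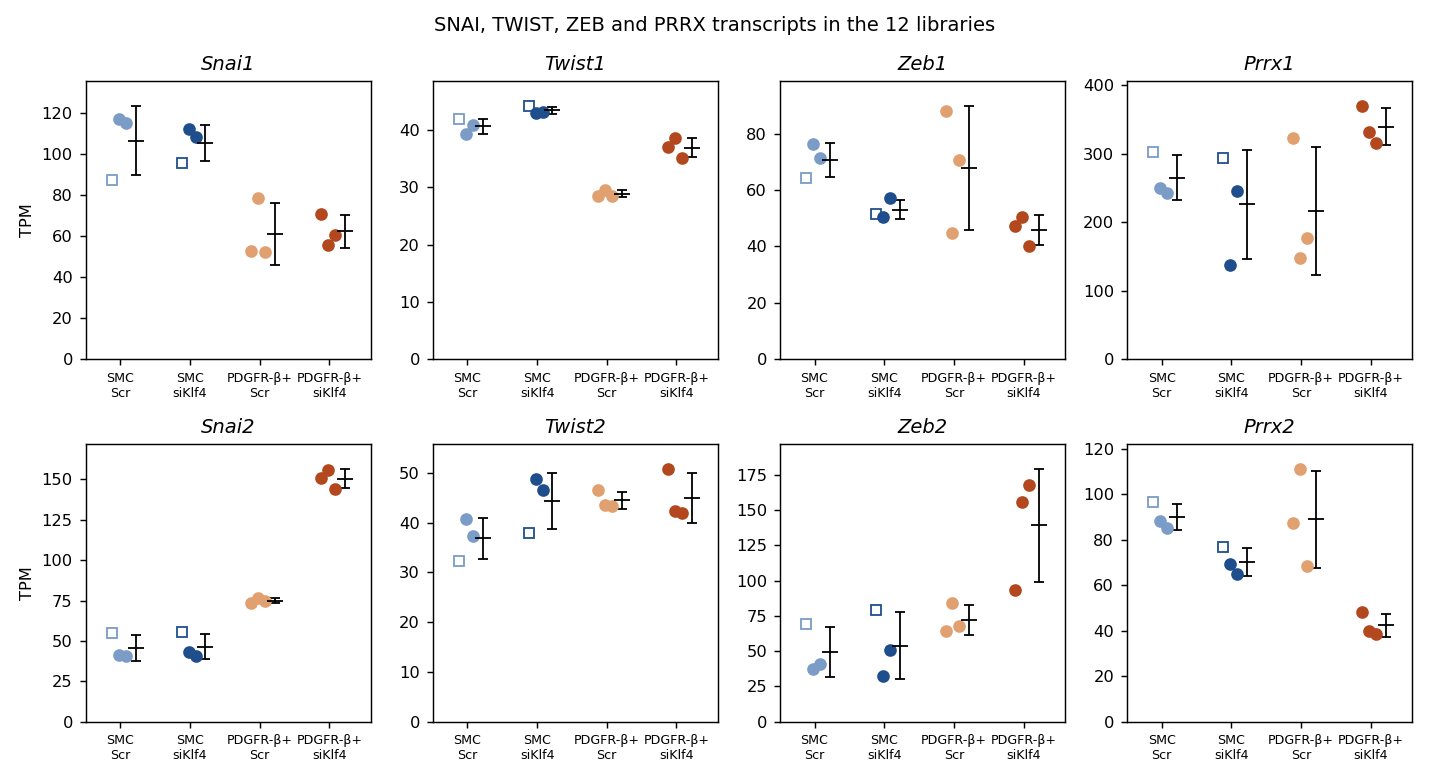
TPM (vertical axes, from 0) of each factor in the 12 libraries, by cell type and treatment; circles are numbered libraries, open squares the 2 unnumbered SMC libraries, and bars the mean ± SD of 3. Snai2 sits at 73.7 to 76.5 TPM in PDGFR-β+ Scr and at 144 to 156 TPM in PDGFR-β+ siKlf4 libraries, while its SMC groups overlap.

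With siKlf4, 3 of the 8 factors rose in PDGFR-β+ cells, Snai2, Zeb2 and Twist1, and 1 fell, Prrx2. In SMCs none rose and 2 fell, Zeb1 and Prrx2. Prrx2 fell in both cell types. Snai2, the zinc finger factor SLUG, rose 2-fold in PDGFR-β+ cells and was among the 3 factors whose change differed between the cell types, the others being Twist1 and Prrx2. Calls were made by limma on log2(TPM + 1) over all genes that averaged 1 TPM or more, at a Benjamini-Hochberg adjusted p under 0.05. In that test 28.5% of 13709 genes were called in SMCs (15.6% higher and 12.9% lower) and 40.6% of 13694 in PDGFR-β+ cells (25.3% higher and 15.3% lower), so 2 and 4 of 8 factors are shares near those of all genes. At an unadjusted p under 0.05 the counts in limma were 2 and 5, and the share of all genes at that threshold was not counted. The median log2 fold change of the 8 was 0.01 in SMCs, beside 0.02 over all genes, and 0.19 in PDGFR-β+ cells, beside 0.10. In PDGFR-β+ cells a median-ratio scaling shifted the log2 fold changes by -0.11, and values relative to that shift are given as rescaled.

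Snai2 had the smallest adjusted p of the 8 factors. In PDGFR-β+ cells it stood at 73.7, 76.5 and 74.7 TPM in the Scr libraries and at 151, 156 and 144 TPM in the siKlf4 libraries. Every siKlf4 library was about 2 times as high as every Scr library. On the log2 scale Snai2 rose by 0.99 ± 0.064 (SE; adjusted p = 4.06e-05, limma), or 0.88 rescaled. In SMCs Snai2 stood at 54.6, 41.1 and 40.6 TPM with Scr and at 55.3, 43.1 and 40.9 TPM with siKlf4, and the groups overlapped, with the unnumbered library the highest of each. There the log2 fold change was 0.03 (95% interval -0.33 to 0.40). The effect in SMCs was lower than that in PDGFR-β+ cells by a log2 difference of -0.96 ± 0.18 (SE, 95% interval -1.35 to -0.58, adjusted p = 0.00165, limma), and this passed the test in all 21 alternatives. For the difference between cell types 33.0% of 13032 genes were called, 14.5% with a higher and 18.5% with a lower effect in SMCs, beside 1 and 2 of the 8 factors.

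Snai1, the gene of SNAIL and the closest relative of Snai2, passed the test in neither cell type. It stood at 87.2, 117 and 115 TPM in SMC Scr and at 95.3, 112 and 108 TPM in SMC siKlf4 libraries. In PDGFR-β+ cells it stood at 52.8, 78.3 and 51.9 TPM with Scr and at 70.8, 55.3 and 60.3 TPM with siKlf4. The groups overlapped in both cell types. The 95% intervals of the log2 fold change ran from -0.31 to 0.29 in SMCs and from -0.35 to 0.44 in PDGFR-β+ cells. Snai3, the third member of the family, did not exceed 0.304 TPM in any library.

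Zeb2, a repressor that also binds SMAD proteins, rose in PDGFR-β+ cells. It stood at 64.4, 84.4 and 68 TPM in the Scr libraries and at 93.7, 156 and 168 TPM in the siKlf4 libraries. All siKlf4 values were above all Scr values, but siKlf4 replicate 1 lay nearer to the Scr range than to its own group. The rise was 0.90 ± 0.22 on the log2 scale (SE; adjusted p = 0.0143, limma), or 0.79 rescaled, and without siKlf4 replicate 2 it was 0.80 with an adjusted p of 0.0506 (limma). In SMCs Zeb2 stood at 69.5, 37.1 and 41.2 TPM with Scr and at 79, 32.3 and 50.5 TPM with siKlf4, and both unnumbered libraries were above all numbered ones. The log2 fold change there had a 95% interval from -0.73 to 0.91. The difference between cell types, -0.81 (95% interval -1.81 to 0.19, adjusted p = 0.195, limma), did not pass the test, and with a replicate block in the numbered libraries it was -0.86 with an adjusted p of 0.0491 (limma). Zeb2os, which overlaps Zeb2 on the opposite strand, reached at most 4.76 TPM in any library. Gm27761, an RNA gene that also lies opposite Zeb2, ran from 8.91 to 15.0 TPM in SMC Scr and from 3.63 to 5.77 TPM in SMC siKlf4 libraries. In PDGFR-β+ cells it ran from 5.46 to 7.12 TPM with Scr and from 6.42 to 8.53 TPM with siKlf4. The study's methods describe strand-specific libraries, but whether reads were counted by strand is not given in the sources used here.

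Zeb1 fell in SMCs. It stood at 64.3, 76.4 and 71.4 TPM with Scr and at 51.5, 50.6 and 57 TPM with siKlf4. All siKlf4 libraries were below all Scr libraries. Zeb1 changed by a log2 value of -0.41 ± 0.089 (SE; adjusted p = 0.0156, limma), and the call was lost without Scr replicate 2 (adjusted p = 0.0542, limma) and without siKlf4 replicate 2 (adjusted p = 0.0613, limma). In PDGFR-β+ cells Zeb1 stood at 88.1, 44.6 and 70.8 TPM with Scr and at 47.2, 50.3 and 40.1 TPM with siKlf4, and Scr replicate 2 lay inside the siKlf4 range. The log2 fold change was -0.51 (95% interval -1.04 to 0.03, adjusted p = 0.115, limma), and without that library it was -0.78 with an adjusted p of 0.00596 (limma). The 2 effects did not differ by the test (0.10, 95% interval -0.49 to 0.70, adjusted p = 0.806, limma).

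**Figure D2:**
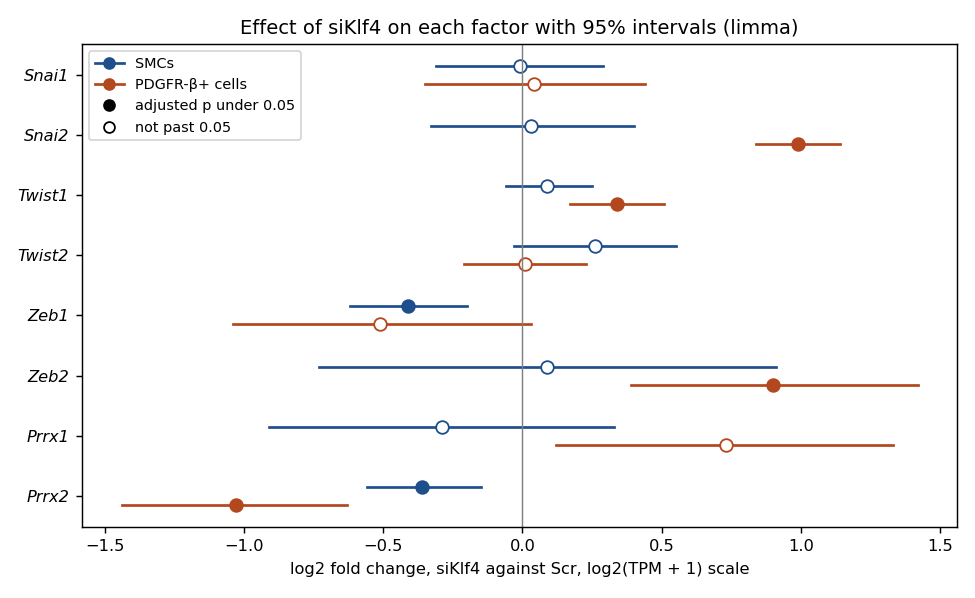
Log2 fold change of siKlf4 against Scr (horizontal axis, log2(TPM + 1) scale) for each factor in SMCs (blue) and PDGFR-β+ cells (orange), with 95% intervals from limma on 3 libraries a group; filled points passed an adjusted p of 0.05. Snai2, Twist1 and Zeb2 lie to the right in PDGFR-β+ cells at 0.99, 0.34 and 0.90, and Prrx2 lies to the left in both, at -0.36 and -1.03.

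Twist1 rose slightly in PDGFR-β+ cells. It stood at 28.5, 29.6 and 28.6 TPM with Scr and at 37.1, 38.6 and 35.2 TPM with siKlf4. The replicates were close and the groups lay apart. This came to a log2 fold change of 0.34 ± 0.073 (SE; adjusted p = 0.00825, limma), or 0.23 rescaled with an adjusted p of 0.0242 (limma). In SMCs Twist1 stood at 41.9, 39.3 and 40.9 TPM with Scr and at 44.2, 43.1 and 43.2 TPM with siKlf4. All siKlf4 libraries were higher, but the log2 fold change of 0.09 did not pass the test (95% interval -0.06 to 0.25, adjusted p = 0.322, limma). The difference between cell types was -0.25 (adjusted p = 0.0462, limma), and it was lost in 16 of 21 alternatives, among them the rescaled values (-0.17, adjusted p = 0.126, limma) and 11 of 12 fits without 1 library.

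Twist2 passed the test in neither cell type. It stood at 32.4, 40.7 and 37.4 TPM in SMC Scr and at 37.9, 48.7 and 46.5 TPM in SMC siKlf4 libraries, where the log2 fold change was 0.26 (95% interval -0.03 to 0.55, adjusted p = 0.159, limma). Within the 4 numbered libraries it was 0.28 with an adjusted p of 0.0464 (limma). With a term for column naming it was 0.26 with an adjusted p of 0.0175 (limma). In PDGFR-β+ cells Twist2 stood at 46.5, 43.6 and 43.4 TPM with Scr and at 50.8, 42.3 and 41.9 TPM with siKlf4, with a log2 fold change of 0.01 (95% interval -0.21 to 0.23). The groups overlapped in both cell types.

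Prrx2 fell in both cell types and was the only factor to do so. In PDGFR-β+ cells it stood at 87.4, 111 and 68.3 TPM with Scr and at 48.2, 40 and 38.6 TPM with siKlf4. No value overlapped, and 47.6% of the Scr mean was left. This was a log2 fold change of -1.03 ± 0.17 (SE; adjusted p = 0.00294, limma), or -1.14 rescaled. In SMCs Prrx2 stood at 96.3, 88.3 and 85.3 TPM with Scr and at 76.7, 69.1 and 64.7 TPM with siKlf4, again without overlap. The fall came to -0.36 ± 0.087 on the log2 scale (SE; adjusted p = 0.0226, limma). This call was lost without Scr replicate 2 (adjusted p = 0.06, limma), siKlf4 replicate 2 (adjusted p = 0.0756, limma) or siKlf4 replicate 3 (adjusted p = 0.0787, limma). Over all genes, 3.82% of 13032 were called lower in both cell types. The fall was larger in PDGFR-β+ cells by a log2 difference of 0.68 ± 0.21 (SE; adjusted p = 0.0286, limma), which was lost in 10 of 21 alternatives, 7 of them fits without 1 library.

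Prrx1, the most abundant factor, passed the test in neither cell type. In PDGFR-β+ cells it stood at 323, 148 and 177 TPM with Scr and at 369, 332 and 316 TPM with siKlf4. Scr replicate 1 lay within the siKlf4 range and the other Scr libraries lay well below it. The log2 fold change was 0.73 (95% interval 0.12 to 1.33) and its adjusted p of 0.0576 (limma) missed the threshold. Without Scr replicate 1 the log2 fold change was 1.06, with an adjusted p of 0.00117 (limma). In SMCs Prrx1 stood at 302, 250 and 242 TPM with Scr and at 294, 138 and 246 TPM with siKlf4, and the groups overlapped. The log2 fold change of -0.29 (adjusted p = 0.439, limma) rested on siKlf4 replicate 2 and was 0.03 without it. The difference between cell types was -1.02 (95% interval -1.92 to -0.12, adjusted p = 0.0778, limma). It passed the test without PDGFR-β+ Scr replicate 1 (adjusted p = 0.0132, limma) and without the unnumbered SMC siKlf4 library (adjusted p = 0.0393, limma).

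Scr and siKlf4 values did not overlap for 3 of 8 factors in SMCs (1 higher and 2 lower) and for 4 of 8 in PDGFR-β+ cells (3 higher and 1 lower). Over all genes tested this held for 47.1% in SMCs (25.6% higher and 21.5% lower) and 53.8% in PDGFR-β+ cells (33.9% higher and 19.8% lower). The scatter of the PDGFR-β+ Scr group was not shared evenly by its libraries. Replicate 2 was the highest of the group for 5 factors, Snai1, Snai2, Twist1, Zeb2 and Prrx2, and the lowest for Zeb1 and Prrx1.

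The share of each paralogue within its pair was read inside each library, where the scaling of the library cancels. In PDGFR-β+ cells Snai2 made up 55.6% ± 5.33 (SD, n = 3) of Snai1 and Snai2 together with Scr and 70.8% ± 2.9 with siKlf4. Zeb2 went from 52.2% ± 11.9 to 74.3% ± 7.23 of the ZEB pair, and Prrx2 went from 30.6% ± 11 to 11.1% ± 0.431 of the PRRX pair. Twist2 made up 60.6% ± 1.25 and 54.8% ± 2.78 of the TWIST pair. The groups did not overlap in any of the 4 pairs. A two-sided exact permutation test gave p = 0.1 for each, which is the smallest that 3 against 3 allows, so none can pass 0.05. In SMCs the groups overlapped in all 4 pairs. Snai2 made up 30.2% ± 7.17 and 30.7% ± 5.24 there, Twist2 47.4% ± 3.63 and 50.4% ± 3.68, Zeb2 40.4% ± 10.2 and 48.8% ± 10.9, and Prrx2 25.5% ± 1.09 and 25% ± 7.28. The Prrx2 share in SMCs was 24.2% to 26.1% with Scr. With siKlf4 it was below that range in the unnumbered library (20.7%) and replicate 3 (20.8%), and above it in replicate 2 (33.4%). The mean of Prrx1, like that of Prrx2, was lower in SMC siKlf4 than in SMC Scr libraries, at 226 ± 79.8 TPM. Replicate 2 was the lowest of those siKlf4 libraries, at 138 TPM.

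**Figure D3:**
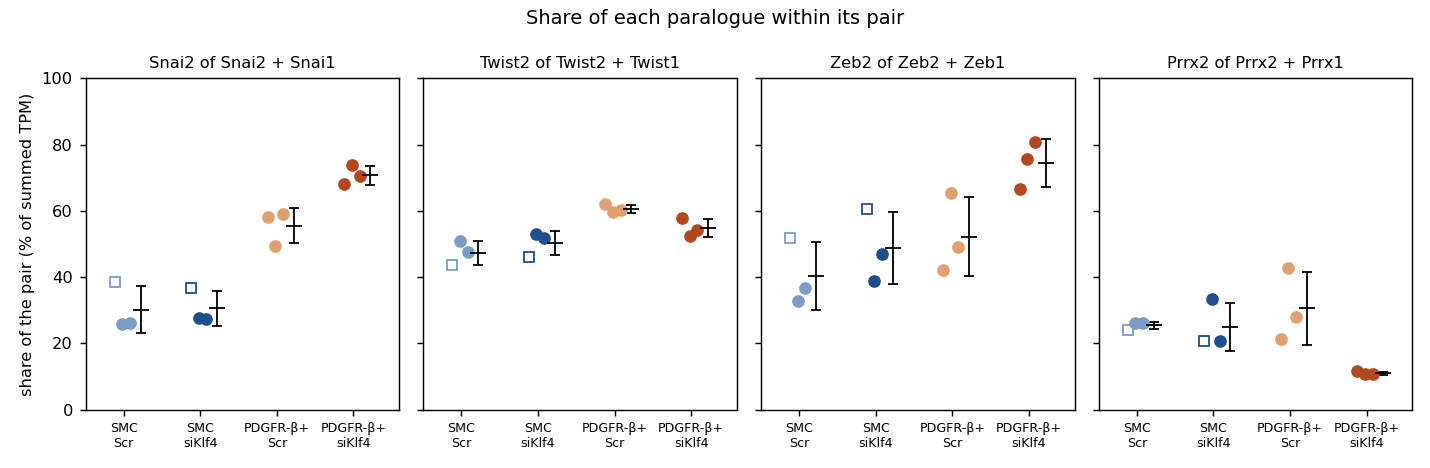
Share of the second paralogue in the summed TPM of its pair (vertical axis, %) in each library, with mean ± SD of 3; open squares are the unnumbered SMC libraries. In PDGFR-β+ cells the Snai2 and Zeb2 shares are higher with siKlf4 and the Twist2 and Prrx2 shares lower, while the SMC groups overlap.

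Few other members of these families were expressed. Of 13 relatives listed, 12 were found and 5 were tested: Scx, Hand2 and Tcf21 of the bHLH class, and Alx1 and Shox2 of the paired homeobox class. Tcf21, a factor of lung fibroblasts, fell in SMCs from 15.4 ± 3.12 to 5.93 ± 2.45 TPM (log2 fold change -1.28, adjusted p = 0.0124, limma) and was near 1 TPM in PDGFR-β+ cells. In PDGFR-β+ cells Hand2 rose from 1.25 ± 0.268 to 3.99 ± 1.13 TPM (1.13, adjusted p = 0.00345, limma) and Shox2 from 1.52 ± 0.449 to 2.68 ± 0.405 TPM (0.56, adjusted p = 0.0419, limma). Scx, a tendon factor, and Alx1 did not pass the test in either cell type.

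TWIST proteins need E proteins as partners, and ID proteins hold E proteins away from DNA. All 7 genes of this list were expressed. For this and the following lists, the shares over all genes in SMCs were 15.6% higher and 12.9% lower. In PDGFR-β+ cells they were 25.3% higher and 15.3% lower. In PDGFR-β+ cells 3 rose and none fell. Id4 rose from 7.23 ± 1.32 to 24.4 ± 1.68 TPM (log2 fold change 1.64, adjusted p = 0.000101, limma), Id2 from 91.6 ± 28.6 to 153 ± 2.39 TPM (0.78, adjusted p = 0.0224, limma) and Tcf3, an E protein, from 47.9 ± 3.79 to 64.6 ± 6.15 TPM (0.42, adjusted p = 0.0115, limma). In SMCs Id1 rose from 56.2 ± 5.45 to 75.9 ± 11.5 TPM (0.42, adjusted p = 0.0413, limma) and Id3 fell from 352 ± 38 to 276 ± 19.8 TPM (-0.35, adjusted p = 0.0367, limma).

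Corepressors and chromatin partners, through which SNAI and ZEB proteins silence genes, were all expressed. Of 15 such genes 2 rose with siKlf4 in SMCs, 4 rose in PDGFR-β+ cells and none fell. Ajuba, a LIM protein that joins SNAI proteins to partner enzymes, rose in both, by 1.07 in SMCs (22.1 ± 1.67 to 47.5 ± 6.2 TPM) and by 0.84 in PDGFR-β+ cells (34 ± 2.23 to 61.6 ± 1.79 TPM). Rcor1, a corepressor, rose by 0.45 in SMCs. The histone deacetylase Hdac1 and the Polycomb gene Bmi1 each rose by 0.61 in PDGFR-β+ cells. The median log2 fold change of the list was 0.13 in SMCs and 0.17 in PDGFR-β+ cells, beside 0.02 and 0.10 over all genes.

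SNAI, TWIST and ZEB proteins are short-lived, and 10 of 11 listed genes that act on their stability were found. In PDGFR-β+ cells 6 of the 10 rose and none fell, with a median log2 fold change of 0.53, beside 25.3% of all genes called higher and a median of 0.10. Among them were Usp27x, a deubiquitinase, at 1.01 (3.38 ± 0.382 to 7.77 ± 0.122 TPM), and the F-box genes Fbxl14 at 0.65 and Fbxo45 at 0.63, whose products mark such proteins for breakdown. In SMCs 2 rose, Fbxl14 at 0.34 and the kinase gene Gsk3b at 0.31. Protein levels of the 8 factors were not analysed here.

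Among the signals known to induce these factors, Tgfb1, Tgfbr1 and Hmga2 moved in opposite directions in the 2 cell types. Of 10 genes of TGF-β signalling and its effector Hmga2, 5 rose and none fell in SMCs, and 3 rose and 5 fell in PDGFR-β+ cells. The list is not of inducers alone: the rises in SMCs included Smad7, an inhibitory SMAD (0.77, adjusted p = 0.027, limma). Hmga2, a chromatin factor, rose from 109 ± 19.8 to 355 ± 21.8 TPM in SMCs and fell from 240 ± 38 to 134 ± 15.1 TPM in PDGFR-β+ cells, a difference of 2.55 (adjusted p = 8.17e-06, limma). The ligand gene Tgfb1 rose from 24.5 ± 4.15 to 47.4 ± 6.06 TPM in SMCs and fell from 50.2 ± 1.18 to 27.4 ± 0.65 TPM in PDGFR-β+ cells (difference 1.78, adjusted p = 2.5e-05, limma). The receptor gene Tgfbr1 rose from 23.6 ± 1.59 to 50.3 ± 3.8 TPM and fell from 23.8 ± 3.56 to 16.3 ± 1.66 TPM (difference 1.57, adjusted p = 3.49e-05, limma). The ligand gene Tgfb2 also fell in PDGFR-β+ cells, by 1.04 on the log2 scale, and Tgfb3 rose in both cell types, by 0.38 and 0.44. Smad2 and Smad4, which carry the signal to the nucleus, rose in PDGFR-β+ cells by 0.38 (adjusted p = 0.047, limma) and 0.36 (adjusted p = 0.00887, limma).

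**Figure D4:**
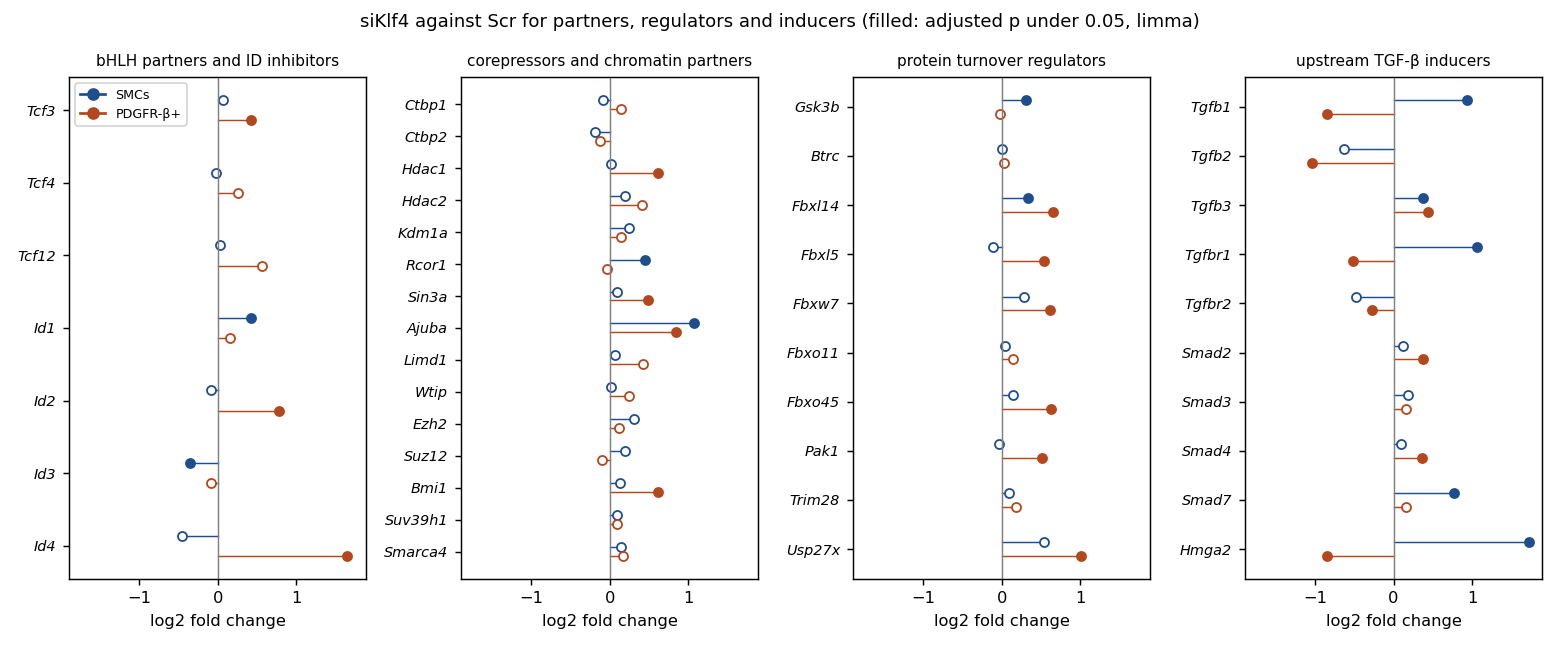
Log2 fold change of siKlf4 against Scr (horizontal axes) for the tested genes of 4 lists in SMCs (blue) and PDGFR-β+ cells (orange); filled points passed an adjusted p of 0.05 (limma). Tgfb1, Tgfbr1 and Hmga2 lie on opposite sides of 0 in the 2 cell types, and no turnover regulator or corepressor was called lower.

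Epithelial genes, the textbook targets of repression, were nearly silent. Of 20 such genes, those under 1 TPM in every library numbered 16 for SMCs and 13 for PDGFR-β+ cells, and Cdh1 did not exceed 0.0877 TPM in any of the 12. Only 3 of the 20 could be tested. Krt19, a keratin gene, rose in SMCs from 3.62 ± 0.425 to 20 ± 4.71 TPM (log2 fold change 2.16, adjusted p = 0.000904, limma) and fell in PDGFR-β+ cells from 29.8 ± 8.42 to 16.7 ± 2.22 TPM (-0.77, adjusted p = 0.0182, limma). Esrp2, an epithelial splicing factor, fell in SMCs from 14.7 ± 0.44 to 9.2 ± 0.254 TPM (-0.62, adjusted p = 0.00322, limma). Llgl2, a polarity gene, passed in neither.

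Mesenchymal effector genes moved both ways. Of 20, 5 rose and 5 fell in SMCs, and 2 rose and 8 fell in PDGFR-β+ cells. Cdh2, the N-cadherin gene, rose in PDGFR-β+ cells from 249 ± 9 to 332 ± 13.4 TPM (log2 fold change 0.41, adjusted p = 0.00222, limma). Tnc, the matrix gene tenascin C, rose by 0.91 in PDGFR-β+ cells and by 0.69 in SMCs. Thy1, a surface marker of fibroblasts, fell in both cell types, by 0.53 in SMCs and by 0.50 in PDGFR-β+ cells on the log2 scale. S100a4, a calcium-binding protein gene of fibroblasts, fell by 1.06 and by 1.67. Lox, a collagen crosslinking enzyme, fell in PDGFR-β+ cells from 2789 ± 643 to 354 ± 77.2 TPM. In SMCs Itga5 rose by 1.27 and Col3a1 fell by 1.05 on the log2 scale.

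Levels of smooth muscle genes moved with the treatment as well. Of 8 markers 7 were tested, and 6 rose in SMCs, Acta2 by 1.01, while 3 rose and 3 fell in PDGFR-β+ cells, Acta2 by -0.29. The summed level of the 8 ran from 1495 to 2284 TPM with Scr and from 3411 to 4174 TPM with siKlf4 in SMCs, and from 5551 to 6408 and from 4708 to 5003 TPM in PDGFR-β+ cells. Of 8 PDGFR-β mesenchyme markers none rose, 4 fell in SMCs and 3 fell in PDGFR-β+ cells, Pdgfrb itself from 447 ± 25.5 to 339 ± 50.8 TPM. The part of this shift in the values of the 8 factors was not tested. Markers of other cell types were low. The 8 endothelial markers summed to 1.62 to 4.42 TPM in SMCs and 14.1 to 18.5 TPM in PDGFR-β+ cells, where Kdr gave most of the sum, and Pecam1 and Cdh5 were under 1 TPM in all 12 libraries. Kdr rose in SMCs from 0.663 ± 0.15 to 2.88 ± 0.217 TPM. The 7 leukocyte markers found summed to 4.44 to 7.19 TPM in SMCs. In PDGFR-β+ cells they ran from 28.6 to 29.9 TPM with Scr and from 18.7 to 22.8 TPM with siKlf4, 2 of 3 tested fell (Lyz2 and Csf1r), Cd68 did not pass the test (7.56 ± 1.37 and 8.77 ± 0.746 TPM), Cd3e was at 0 and Ptprc reached at most 0.266 TPM. Leukocytes also express Zeb2, and the part of these markers in its values was not tested.

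Of the 16 nearest protein-coding neighbours of the 8 genes 12 were tested, and 2 were called in SMCs and 4 in PDGFR-β+ cells. Over all genes tested 28.5% and 40.6% were called. Rnf114, 22022 bases before the start of Snai1, was higher with siKlf4 in both cell types (0.39, adjusted p = 0.0157, and 1.07, adjusted p = 5.94e-05, limma), while Snai1 itself passed the test in neither. Both neighbours of Prrx2, Asb6 and Ptges, and both neighbours of Twist1 were not called or not tested. In PDGFR-β+ cells Gorab, beside Prrx1, was lower (-0.37), and of the neighbours of Zeb1, Zfp438 was higher (0.57) and Arhgap12 lower (-0.33). Acvr2a, 3696714 bases from Zeb2, was higher in SMCs (0.38).

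The genes whose log2(TPM + 1) followed each factor most closely over the 12 libraries were sought among 11392 genes, as a description: the libraries share cell type and treatment, so any gene that separates the 4 groups alike scores highly. For Snai2 they were Lrrk2 (Pearson r = 0.990), Ankrd26 (0.989) and Jag1 (0.986). For Twist1 they were Cxadr (0.983), Tti2 (0.982) and Gli2 (0.981), for Prrx2 Pcbp2 (0.978), Trabd2b (0.978) and Zmiz1 (0.973), and for Snai1 Rxrb (0.962), Nudt14 (0.961) and Rrad (0.961). Zeb2 followed Smad2 (0.956), Zfp202 (0.948) and Ttc27 (0.943). The values were lower for Prrx1 (Ing5, 0.921, Zmat5, 0.887, and Zfp639, 0.883), Twist2 (Thoc6, 0.909, Gpr180, 0.893, and Tardbp, 0.889) and Zeb1 (Apoa2, 0.892, Fbxo8, 0.892, and Tvp23b, 0.873).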

How the data were processed

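Polyadenylated RNA was sequenced in 12 libraries, 3 for each of 4 groups. Per the study's methods the authors trimmed the reads, aligned them with HISAT2 to mm10 with GENCODE genes and estimated abundance with StringTie and ballgown, and the values used here are the TPM they deposited, 1 table for each cell type. Versions of HISAT2, StringTie and ballgown and the GENCODE release are not given in the sources used here. TPM carries no depth, so the study's count-based test could not be repeated and TPM composition can move every gene. Libraries were called 3 independent experiments, and where that does not mean separate cultures the p-values measure technical spread.

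For each cell type log2(TPM + 1) was fitted with limma 3.58.1 (R 4.3.3, moderated variance with a trend) over genes averaging 1 TPM or more across its 6 libraries, with Benjamini-Hochberg adjustment and a threshold of 0.05. The difference between cell types was the interaction over all 12 libraries. The fits were tested on simulated data. SMC columns without a number were used as members of their group. Positions came from GENCODE M21 (GRCm38) and upstream sequences from RefSeq. The 8 genes and the lists were chosen with earlier results of these data known. Named were the 8 factors, Klf4, up to 3 called genes in each direction and cell type from each list, neighbours, and the 3 most alike genes. The most abundant genes of marker lists were named too. Some defining markers, the PDGFR-β mesenchyme markers, Smad7 and genes that overlap Zeb2 were chosen after their values were seen. Alternatives were a pseudocount of 0.1, a minimum of 5 TPM or none, median-ratio and quantile scaling, limma without the trend, a replicate block, the numbered SMC libraries alone, a term for column naming and each library left out. Values of some listed genes are not reported here.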

Additional observations from a re-analysis of the deposited data

Results flagged for a closer look

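For 3 of the 8 factors limma's interaction test found unequal responses to siKlf4 in SMCs and PDGFR-β+ cells, beside 33.0% of 13032 genes. The log2 effect in SMCs minus that in PDGFR-β+ cells was -0.96 for Snai2, which rose in PDGFR-β+ cells and overlapped between groups in SMCs, -0.25 for Twist1, and 0.68 for Prrx2, which fell in both. The differences for Twist1 and Prrx2 were lost in 16 and 10 of 21 alternatives. Klf4 itself differed by 1.19, with 21.9% of its Scr level left in SMCs and 9.16% in PDGFR-β+ cells. The part of this unequal knockdown in the differences between cell types was not tested.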

How the results depend on the processing

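The rise of Snai2 and Twist1 and the fall of Prrx2 in PDGFR-β+ cells passed the threshold in all 13 alternatives, and the count of 4 called factors there stayed between 3 and 5. In SMCs 2 factors were called, 0 to 2 when 1 library was left out and 2 to 3 in the other alternatives. Twist2 was added, called higher with the numbered SMC libraries alone (adjusted p = 0.0464, limma) and with a term for column naming (adjusted p = 0.0175, limma). Between cell types 3 factors differed, 1 to 2 when 1 library was left out and 1 with the numbered SMC libraries alone. The count in SMCs was 0 without Scr replicate 2 or siKlf4 replicate 2 and 1 without siKlf4 replicate 3, and that of the difference was 1 without SMC Scr replicate 2 or 3, SMC siKlf4 replicate 2 or PDGFR-β+ siKlf4 replicate 2. Signs turned in effects that were not called. With median-ratio scaling Snai1 (-0.065) and Twist2 (-0.098) in PDGFR-β+ cells and the difference of Snai1 (0.027) turned, and with quantile normalization Snai1 (-0.029) and Twist2 (-0.075) in PDGFR-β+ cells and Snai2 in SMCs (-0.035). Leaving out 1 library gave ranges in SMCs of -0.14 to 0.068 for Snai1, -0.10 to 0.17 for Snai2, -0.23 to 0.41 for Zeb2 and -0.51 to 0.029 for Prrx1, in PDGFR-β+ cells of -0.057 to 0.23 for Snai1 and -0.078 to 0.058 for Twist2, and for the difference of -0.24 to 0.049 for Snai1 and -0.11 to 0.37 for Zeb1. Genes called over all genes tested ran from 2216 to 5492 in SMCs (3910 as reported) and from 4207 to 5641 in PDGFR-β+ cells (5559). The cause of these moves was not tested.

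Same-numbered libraries showed little common deviation in PDGFR-β+ cells (r = 0.073, -0.016 and 0.004), beside -0.098 to 0.083 for libraries of unlike number. Values this low cannot settle whether libraries of 1 number belong together. In SMCs the same-numbered libraries correlated at 0.185 and 0.199. Without the unnumbered libraries both pairs gave 0.102, since 2 libraries a group allow only 1 value apart from its sign. The 2 unnumbered libraries correlated at 0.361. These carry no number, and 2 numbered pairs do not settle the pairing. With the replicate block 5 factors were called in PDGFR-β+ cells, Prrx1 among them (adjusted p = 0.0309, limma), and 2 in the numbered SMC libraries. The difference of Zeb2 between cell types passed with that block (-0.858, adjusted p = 0.0491, limma), and those of Twist1 (adjusted p = 0.0981, limma) and Prrx2 (adjusted p = 0.0576, limma) did not.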
